A study of Mus musculus with 6 samples.

Results

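Serpins, clotting factors and the proteins of fibrinolysis were followed in the lungs of 6 C57 mice after sensitization and challenge by ovalbumin (OVA), a protein used to provoke allergic airway inflammation. Amplified lung RNA of 1 OVA mouse was set on each 2-colour spotted array against the same pool of amplified lung RNA from control C57 mice. The labels give no age, sex, dose, timing or number of mice in the pool, so the pool counts as 1 control sample without a spread of its own. Members were the rows of the array whose gene symbol starts with Serpin (Serping1 excepted) or names a factor of coagulation or fibrinolysis on a fixed list, with a value on at least 4 of the 6 arrays. This gave 39 rows for 39 genes, 21 serpins and 18 other factors, out of 11629 tested rows for 9774 named genes. The table has 51 rows with such a symbol, and 12 of them had too few values.

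Coagulation is a cascade in which serine proteases activate each other on membrane surfaces until thrombin turns fibrinogen into fibrin, which factor XIII then cross-links. Protein C with its cofactor protein S shuts the cascade down, and plasmin, made from plasminogen by the activators tPA (Plat) and uPA (Plau), dissolves the fibrin. Most serpins trap such proteases irreversibly through a reactive loop, although a few have lost this activity and serve as chaperones or hormone carriers. In the lung, fibrin deposition and leakage of plasma proteins are known features of inflamed airways, while most circulating clotting factors are made in the liver.

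The deposited value of a row is a log ratio between the channels of 1 array, read here as log2 and centred on the array's median. A natural logarithm cannot be told apart from it and would make every fold larger than printed. Which channel is the numerator is not settled: titles name the OVA mouse first, but the mucous cell genes Clca1 and Muc5ac, which are known to be induced in this model, had means of -3.06 and -2.63. Signs are therefore printed as deposited without saying which of OVA mice and pool they favour, and sizes are folds between them. In whole lung, fewer cells of a type and less RNA per cell cannot be told apart. Lung markers were measured, 6 of 8 genes of alveolar type 2 cells and 7 of 7 of club cells, but ratios give no level. The arrays had values for 10922 to 13132 rows. Sequences spotted 17 times varied within an array with a median SD of 0.0911 to 0.136. The array of mouse 3 stood apart, with a correlation of 0.168 to 0.417 with the other arrays against 0.492 to 0.861 among those. It had Clca1 at 0.84 and Muc5ac at 0.22. Its ratios were the smallest in general, with an SD over all tested rows of 0.215 against 0.325 to 0.49 in the other mice. A value near 0 in mouse 3 is therefore not particular to a gene. Members whose call or sign changes without this array are given both ways.

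Of the 39 member rows, 15 passed an adjusted p of 0.05 (limma against 0, Benjamini-Hochberg over all rows), 8 of them on the negative side and 7 on the positive side. Among all tested rows 24.4% passed, 12.3% negative and 12% positive, and the share among the members was 38.5%. Without mouse 4 the counts fell to 6 members (15.4%) and 11.5% of all rows, and without mouse 2 or mouse 6 to 9 members each, beside 11.8% and 14.8% of all rows. Calls at least 1.5-fold apart numbered 3 among the members, Serpina3n, Serpinh1 and F13a1, against 4.88% of all rows, 3.11% negative and 1.77% positive. The members' median mean ratio was -0.06 and that of all rows -0.003, with 23 means negative and 16 positive. It was -0.18 without rows near a stronger row of the same sign and 0.005 without mouse 3. A median size of 0.16 among the members compares with 0.11 among all rows. Of the 30 members with 6 values, 14 had the same sign in every mouse, against 30.2% of all rows with 6 values.

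**Figure D1:**
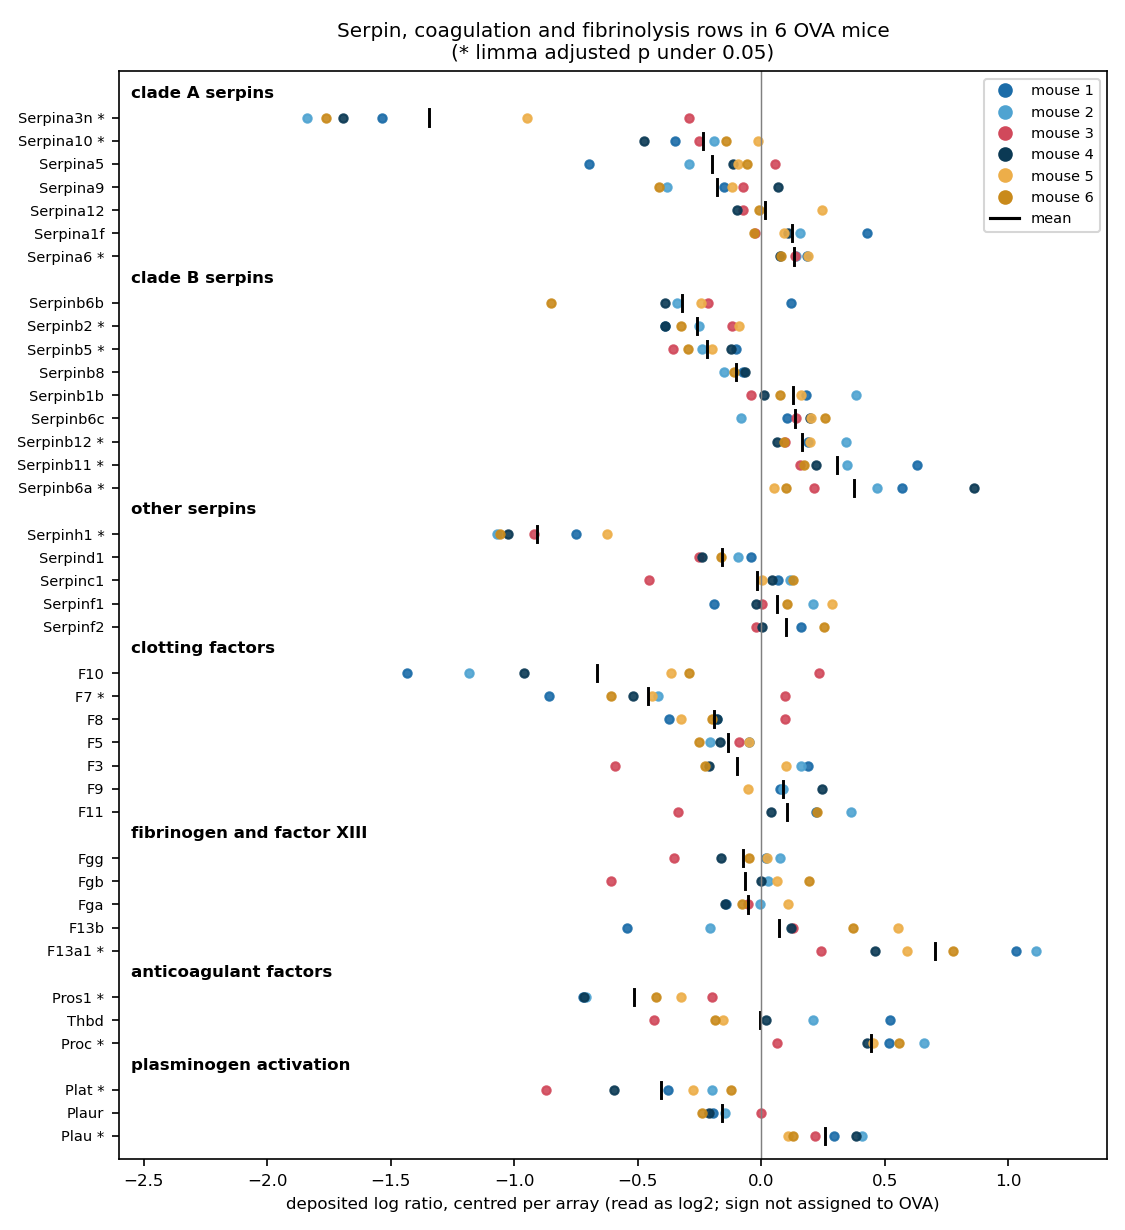
Log ratio (x axis, read as log2) of each of the 39 member rows by role, with 1 point per mouse and a bar at the mean; an asterisk marks a limma adjusted p under 0.05. The 6 values of Serpina3n and Serpinh1 lie left of 0, those of F13a1 right of 0, and F10 spans -1.43 in mouse 1 to 0.23 in mouse 3.

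Serpina3n, a secreted acute-phase serpin that inhibits chymotrypsin-like proteases such as cathepsin G, had the largest ratio of all members. Its values were -1.54, -1.84, -0.29, -1.69, -0.95 and -1.76 in mice 1 to 6. Mouse 3 lay closest to 0, and mice 1, 2, 4 and 6 lay together between -1.84 and -1.54. The mean of -1.34 ± 0.61 (SD, n = 6) was 2.54-fold apart from the pool (adjusted p = 0.00677), and without mouse 3 it was 2.93-fold apart. The call held whichever mouse was left out, with adjusted p between 0.00109 and 0.0287. The family has near-identical copies that a spotted probe may also bind.

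The gene lies on chromosome 12 in the clade A cluster, whose 7 measured members span 103616675 to 104414334 (GRCm38.p6). Except for Serpina3n, no member of this cluster was 1.2-fold apart. Serpina10, the inhibitor of factor Xa that works with protein Z, was at -0.24 ± 0.16 and negative in 6 of 6 mice (adjusted p = 0.0312). Serpina6, the corticosteroid carrier of plasma, was at 0.13 ± 0.05 and positive in 6 of 6 mice (adjusted p = 0.0297). It varied least of the members with 6 values, from 0.075 to 0.19. These are small ratios near the threshold. Serpina10 kept its call in 1 and Serpina6 in 0 of the 6 fits that left out a mouse. Adjusted p in those fits was 0.0272 to 0.0799 for Serpina10 and 0.0542 to 0.0836 for Serpina6. Without mouse 3 it was 0.0577 and 0.0542. The same fits called 11.5% to 25.9% of all rows, beside 24.4% with all 6 mice. Serpina5, the protein C inhibitor, at -0.20, Serpina9 at -0.18, Serpina12, which adipose tissue secretes, at 0.02 and Serpina1f at 0.12 did not pass. Serpina5 owed its mean largely to mouse 1 at -0.70, the others lying between -0.29 and 0.06.

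Serpinh1 encodes HSP47, a serpin of the endoplasmic reticulum that inhibits no protease and binds newly made procollagen as its chaperone. Its 6 values were -0.75, -1.07, -0.92, -1.03, -0.62 and -1.06. All mice lay within this range, mouse 3 included. The mean of -0.91 ± 0.18 (SD, n = 6) was 1.88-fold apart and had the lowest adjusted p of the members (0.00163). Leaving out single mice kept the mean between -0.97 and -0.88 and the adjusted p at 0.0117 or below. Of the 6 fibroblast and collagen genes measured here, 2 passed on the same side, the fibrillar collagens Col1a1 at -1.45 and Col3a1 at -1.67, and 1 on the other, the receptor Pdgfra at 0.45. In mouse 3 Col1a1 was at -0.91 and Col3a1 at -0.075. The median of this list lay between -0.66 and 0.09 in single mice, and its part in the Serpinh1 ratio was not tested.

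The upstream bases of 4 of the 5 members whose calls held whichever mouse was left out are printed here, since these are the members the results turn on most (RefSeq, GRCm38.p6, gene strand, 5′ to 3′, ending before the annotated gene). The windows are chr12:104406458-104406645 on the plus strand for Serpina3n, chr7:99353240-99353489 on the minus strand for Serpinh1, chr16:62854057-62854306 on the plus strand for Pros1 and chr13:37050245-37050494 on the minus strand for F13a1. Capitals mark matches, on either strand, to any of 7 short motifs searched. The STAT motif was TTCNNNGAA, and the heat shock motif was GAANNTTC. The box named TATA was searched as TATAAA. For C/EBP the letters were TTGCNNAA. The box named CCAAT was searched by those same letters. For AP-1 the letters were TGANTCA. The GC box was searched as GGGCGG. Matches may overlap, as the last GC boxes of Pros1 do.
Serpina3n: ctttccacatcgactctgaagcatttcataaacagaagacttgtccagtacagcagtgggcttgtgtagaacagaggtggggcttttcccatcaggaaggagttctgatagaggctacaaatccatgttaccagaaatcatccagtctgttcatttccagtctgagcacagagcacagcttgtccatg
Serpinh1: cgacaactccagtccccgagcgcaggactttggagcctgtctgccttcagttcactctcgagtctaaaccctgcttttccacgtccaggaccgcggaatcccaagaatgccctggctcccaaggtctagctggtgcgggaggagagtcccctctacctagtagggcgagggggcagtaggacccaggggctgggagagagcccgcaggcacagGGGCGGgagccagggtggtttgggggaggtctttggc
Pros1: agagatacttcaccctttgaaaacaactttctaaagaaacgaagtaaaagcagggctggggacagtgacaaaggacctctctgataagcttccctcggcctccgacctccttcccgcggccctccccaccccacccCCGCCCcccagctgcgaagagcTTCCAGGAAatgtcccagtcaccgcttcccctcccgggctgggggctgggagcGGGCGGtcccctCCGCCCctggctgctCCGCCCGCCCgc
F13a1: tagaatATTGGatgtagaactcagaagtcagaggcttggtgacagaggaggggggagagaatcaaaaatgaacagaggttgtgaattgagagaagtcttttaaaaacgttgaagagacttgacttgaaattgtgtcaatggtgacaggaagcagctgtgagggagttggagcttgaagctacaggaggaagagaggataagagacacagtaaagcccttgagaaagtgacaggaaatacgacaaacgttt
Pros1 held 5 GC boxes and 1 STAT motif, 92 to 84 bases before its start, Serpinh1 held 1 GC box, and F13a1 1 CCAAT box. No match lay in the bases shown for Serpina3n. Among 32851 windows of 250 bases, 7.02% held a STAT motif, 6.69% a heat shock motif, 12.4% a TATA box, 33.8% a CCAAT box and 32.7% a GC box. Of the members, 32 had a window in the table, and 7 of these genes held a STAT motif, 3 a heat shock motif, 2 a TATA box, 9 a CCAAT box and 10 a GC box. AP-1 motifs lay in 8 and C/EBP motifs in 10 of them. Of the 36 windows of these genes, 9 held an AP-1 motif and 11 a C/EBP motif, against 6.75% and 9.56% of all windows. STAT motifs lay in 7, heat shock motifs in 3, TATA boxes in 4, CCAAT boxes in 9 and GC boxes in 10 windows. A gene may have more than 1 window, and these counts use whole windows, which can lie partly or wholly inside the annotated gene. The AP-1 matches lay in Serpinb2, Serpinb5, Serpinb8, Serpinb11 and Serpinb12, which is 5 of 9 clade B serpins, and in F3, Fgb and Plaur. Those of Serpinb2, Serpinb8 and Plaur lay inside the annotated gene. The 5 clade B genes had means on both sides, from -0.26 to 0.31.

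Clade B serpins, which mostly stay inside cells and guard against leaked granule and lysosomal proteases, had small ratios on both sides of 0. Of 9 measured, 5 passed, 2 negative and 3 positive, and no mean reached 1.5-fold. Serpinb2, known as PAI-2, an inhibitor of uPA that monocytes make, was at -0.26 ± 0.13 and negative in 6 of 6 mice, from -0.39 to -0.09 (adjusted p = 0.015). Serpinb5 (maspin), an epithelial serpin that inhibits no known protease, was at -0.22 ± 0.10 and negative in 6 of 6 mice (adjusted p = 0.0152). Both kept their calls in 5 of the 6 fits that left out a mouse, Serpinb2 losing it without mouse 4 and Serpinb5 without mouse 2.

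On the positive side, Serpinb6a, a broad intracellular inhibitor of serine proteases, had values of 0.57, 0.47, 0.21, 0.86, 0.05 and 0.10. Mice 1, 2 and 4 were highest, and mice 5 and 6 were near 0. Its mean of 0.38 ± 0.31 passed (adjusted p = 0.043) but kept the call only when mouse 5 was the one left out (adjusted p = 0.0447, and 0.0506 without mouse 3). Its paralogue Serpinb6b lay on the other side at -0.32 ± 0.32, from -0.85 in mouse 6 to 0.12 in mouse 1, and did not pass (adjusted p = 0.0718), though it did without mouse 1 (0.0322) and, barely, under quantile normalization (0.0497). A further paralogue, Serpinb6c, was at 0.14 ± 0.12 and passed only without mouse 2 (adjusted p = 0.0862 with all mice and 0.0443 without it). These 3 genes share a cluster on chromosome 13 and have similar sequences, so cross-binding between their probes cannot be told apart from their own signal. Serpinb11 at 0.31 ± 0.20 (n = 5, adjusted p = 0.0343) and Serpinb12 at 0.16 ± 0.10 (adjusted p = 0.0386) were positive in every mouse with a value. Serpinb11 kept its call in 3 and Serpinb12 in 1 of the fits without a mouse. Serpinb1b at 0.13 and Serpinb8 at -0.10 (n = 4) did not pass. A second Serpinb12 row had 3 values, between -0.04 and 0.05, and was not tested.

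The remaining serpins act in plasma. Serpinc1 (antithrombin), the main inhibitor of thrombin and factor Xa, was at -0.02 ± 0.22, Serpind1 (heparin cofactor II) at -0.16 ± 0.09 (n = 5), Serpinf1 (PEDF, an inhibitor of vessel growth) at 0.07 ± 0.17 and Serpinf2 (the plasmin inhibitor) at 0.10 ± 0.13 (n = 4). Of these 4, Serpind1 came closest to a call (adjusted p = 0.0593). Each was within 1.2-fold of the pool.

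**Figure D2:**
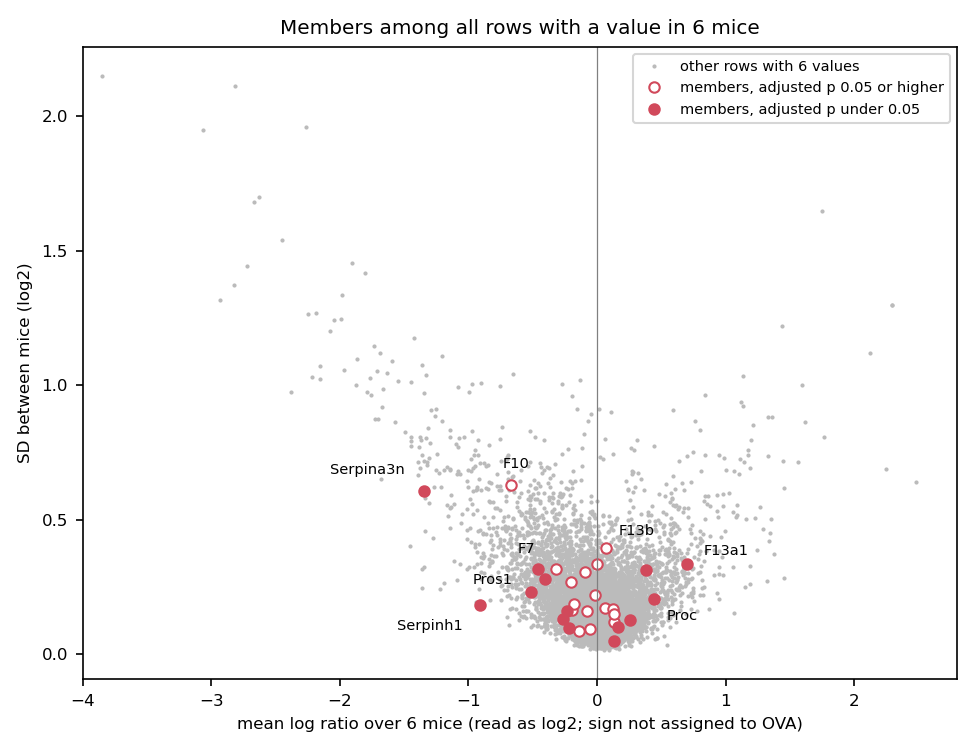
Mean log ratio over the 6 mice (x axis, read as log2) against the SD between mice (y axis, log2) for every row with 6 values, members in red. Serpina3n and Serpinh1 lie farthest left among the members, with SDs of 0.61 and 0.18, and F10 has the largest member SD, 0.63.

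Among clotting factors, the largest negative ratios belonged to neighbours on chromosome 8, F7 (13025506 to 13035809) and F10 (13037308 to 13056676). Factor VII starts the extrinsic pathway together with tissue factor, and factor X is the protease on which both pathways meet and which makes thrombin. F10 had values of -1.43, -1.18, 0.23, -0.96, -0.36 and -0.29 in mice 1 to 6. Mice 1, 2 and 4 were lowest, mice 5 and 6 nearer 0, and mouse 3 on the other side. The mean of -0.67 ± 0.63 (n = 6) was 1.59-fold apart and did not pass (adjusted p = 0.0582), while without mouse 3 it was -0.84, 1.80-fold apart, and passed (adjusted p = 0.0168). F7 had values of -0.86, -0.42, 0.10, -0.52, -0.44 and -0.61, with mouse 3 again alone on the positive side. Its mean of -0.46 ± 0.32 (1.37-fold) passed (adjusted p = 0.024) and without mouse 3 was -0.57 (adjusted p = 0.00339). The call was lost without mouse 2, 4, 5 or 6.

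The next gene of the same stretch, Proz (protein Z), which is no member, was at -0.12 ± 0.16 and did not pass (adjusted p = 0.195). Macrophage and monocyte markers had list medians of -1.09, -1.42 and -1.05 in mice 1, 2 and 4, -0.77 and -0.67 in mice 5 and 6 and 0.17 in mouse 3, and 6 of 10 rows passed, all negative. Mucous cell markers had the same form, with -1.42, -1.23 and -1.64 in mice 1, 2 and 4, -0.73 and -0.93 in mice 5 and 6 and 0.19 in mouse 3, and 3 of 7 rows passed, all negative. As in F10, mice 1, 2 and 4 were lowest and mouse 3 alone was positive in both lists, while in F7 mouse 6 lay below mice 2 and 4. Whole arrays grouped in this way too, so the order is not particular to F10 or these lists. Pairs among mice 1, 2 and 4 had correlations of 0.82 to 0.861. The pair of mice 5 and 6 had 0.852, while pairs across these groups had only 0.492 to 0.748. Club cell and heart muscle markers had the mirrored order, with medians highest in mice 1, 2 and 4 and lowest in mouse 3. The other marker lists had neither order. The part of macrophage or mucous cell markers in the F10 and F7 ratios was not tested.

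The other factors lay close to the pool. F8, the cofactor of factor IXa that endothelium makes, was at -0.19 ± 0.16 and did not pass (adjusted p = 0.0618), but it passed without mouse 3 at -0.25 (adjusted p = 0.0127). F5, the cofactor of factor Xa, was at -0.14 ± 0.09, negative in 6 of 6 mice and short of the threshold (adjusted p = 0.0522), which it passed with arrays scaled (0.0457), with quantile normalization (0.0494) and with array weights (0.0288). F3 (tissue factor), the membrane receptor of factor VII, had values from -0.59 in mouse 3 to 0.19 in mouse 1 and a mean of -0.10, which was 0.005 without mouse 3, with no call either way. F9 at 0.09 (n = 4) and F11 at 0.10 (n = 5), proteases of the intrinsic pathway, had no call. F12 had 3 values between -0.06 and 0.08, and F2 (prothrombin) had none.

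Of 5 fibrinogen and factor XIII rows, 1 passed. F13a1, the transglutaminase subunit of factor XIII that macrophages and platelets hold, had values of 1.03, 1.11, 0.24, 0.46, 0.59 and 0.78. All mice were positive, mice 1 and 2 highest and mouse 3 lowest. The mean of 0.70 ± 0.34 (n = 6) was 1.63-fold apart (adjusted p = 0.00836), the largest positive ratio of the members, and the call held whichever mouse was left out. Its ratio had the sign opposite to that of the macrophage list, whose median over its rows was -0.91. The row lies 6 rows from that of Sult1a1, at 1.17. Mean ratios of rows 6, 18 or 24 apart were weakly correlated across row pairs, with r of 0.132, 0.102 and 0.107, against 0.00690 to 0.0251 for the distances 1 row shorter or longer. The called members Serpina6, Serpinb5, Serpinb11 and Serpinb12 also lay 6, 18 or 24 rows from a stronger called row of their sign. A share of a neighbour's signal in F13a1 or in these rows was not tested. The carrier subunit F13b, made in the liver, was at 0.07 ± 0.40, and its mice ran from -0.54 in mouse 1 to 0.55 in mouse 5.

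The fibrinogen chains Fga, Fgb and Fgg, which sit together on chromosome 3, had means of -0.05 ± 0.10, -0.06 ± 0.31 (n = 5) and -0.07 ± 0.16, with no call. In mouse 3, Fgb was at -0.61, Fgg at -0.35 and Fga at -0.05, while the other mice lay between 0 and 0.19 for Fgb and between -0.16 and 0.08 for Fgg. Serpinc1 had the same form, -0.45 in mouse 3 against 0.003 to 0.13 elsewhere, and F11 was at -0.34 in mouse 3 against 0.04 to 0.37. Without mouse 3, F11 had a mean of 0.22, Fgb of 0.07, Serpinc1 of 0.07 and Fgg of -0.02, and none of them passed. Mouse 3 held the lowest value in 14 and the highest in 7 of the 37 members it measured. Among rows with 6 values it held the lowest in 9 and the highest in 6 of 30 members, and in 20.6% and 19.3% of all rows. Mouse 1 was at an extreme more often over all rows, lowest in 25.6% and highest in 26.2%, and in 8 and 6 of the 30 members. Hepatocyte markers were also low in mouse 3, with a median of -0.49 against 0.21 to 0.34 in the other mice. Mouse 3 was lowest in 7 of 7 such rows with a value there. Transthyretin (Ttr) was at -0.87, Apoh at -0.76 and albumin (Alb) at -0.51 in that mouse. None of the 8 hepatocyte rows passed over the 6 mice, and their part in the plasma protein genes of mouse 3 was not tested.

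**Figure D3:**
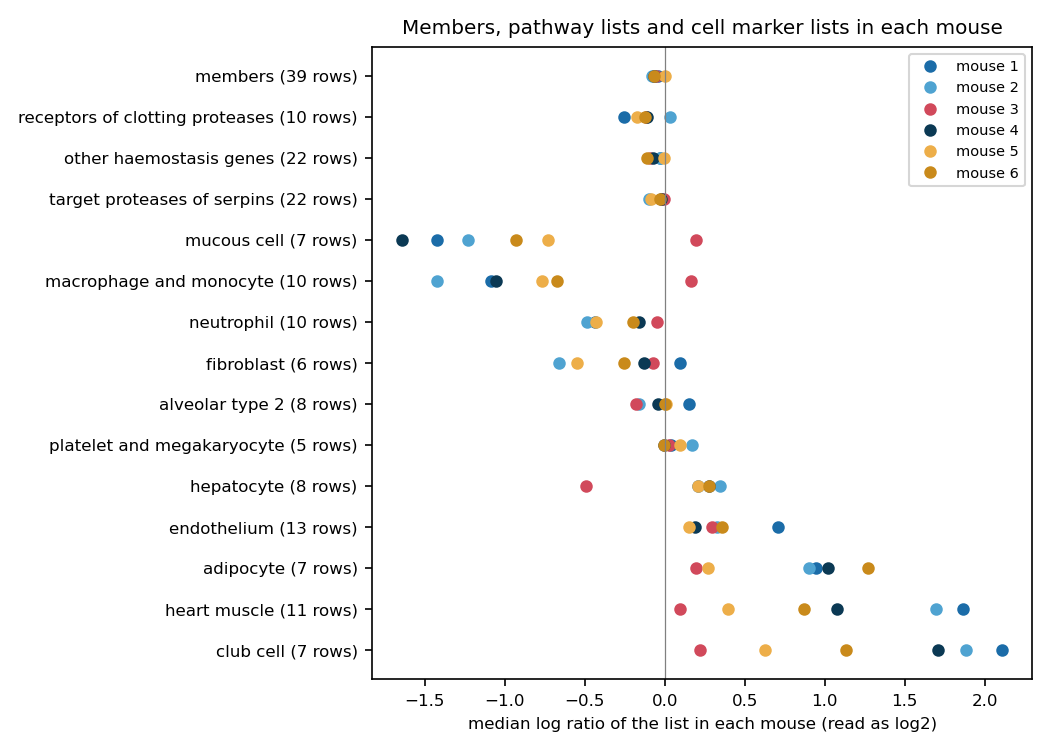
Median log ratio (x axis, read as log2) in each mouse for the 39 members, the 3 pathway lists and the marker lists with at least 4 genes tested. The members' medians stay between -0.08 and 0.003, while mouse 3 stands at -0.49 for hepatocyte markers and at 0.17 for macrophage and monocyte markers.

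Protein C and its cofactor, the anticoagulant pair, had opposite signs. Pros1 (protein S), the cofactor that endothelium, liver and myeloid cells make, had values of -0.72, -0.71, -0.20, -0.72, -0.33 and -0.42. Mice 1, 2 and 4 were almost equal and lowest, and mouse 3 was nearest 0. The mean of -0.52 ± 0.23 (n = 6) was 1.43-fold apart (adjusted p = 0.00761). Proc (protein C), the protease that inactivates factors Va and VIIIa, had values of 0.52, 0.66, 0.06, 0.43, 0.45 and 0.56. Mouse 3 was close to 0, and the other 5 lay together. The mean of 0.45 ± 0.20 (n = 6) was 1.36-fold apart (adjusted p = 0.00868). Both calls held whichever mouse was left out. The Proc row lies 18 rows from that of the heart gene Nppb at 1.45, and a share of that signal in it was not tested.

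Thbd (thrombomodulin), the endothelial receptor on which thrombin activates protein C, had no net ratio, with 3 mice on each side. It ran from -0.43 in mouse 3 to 0.52 in mouse 1, with a mean of -0.003 ± 0.34, or 0.08 without mouse 3, and no call in either case. Endothelial markers had a positive median in each mouse, 0.15 to 0.71, and 6 of 13 rows passed, all positive. Tfpi had 3 values between -0.05 and -0.001, and Tfpi2 had 1 value. Factors VII and X, protein C and protein S all need vitamin K-dependent carboxylation of glutamate. The carboxylase Ggcx was at -0.47 ± 0.26 (adjusted p = 0.0125) and the vitamin K reductase Vkorc1 at 0.40 ± 0.16 (adjusted p = 0.00678).

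The plasminogen activators also lay on opposite sides. Plat (tPA), which endothelium releases and which works on fibrin, had values of -0.38, -0.20, -0.87, -0.60, -0.28 and -0.12. All mice were negative, and here mouse 3 had the largest ratio. The mean of -0.41 ± 0.28 (n = 6) was 1.33-fold apart (adjusted p = 0.0247), and without mouse 3 it was -0.31 (1.24-fold). The call was lost without mouse 4 (adjusted p = 0.0782), under quantile normalization (adjusted p = 0.111) and with unmoderated variances. Plau (uPA), the activator that works at cell surfaces, had values of 0.30, 0.41, 0.22, 0.38, 0.11 and 0.13. All mice were positive, with a mean of 0.26 ± 0.13 (1.20-fold, adjusted p = 0.0143), and the call was lost only without mouse 4 (adjusted p = 0.0514). The uPA receptor Plaur was at -0.16 ± 0.10 (n = 5) and did not pass (adjusted p = 0.0609). At 0 in mouse 3 and between -0.24 and -0.14 in the other 4, it passed without that mouse (adjusted p = 0.0321). Plg (plasminogen) had 3 values between -0.14 and 0.005.

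**Figure D4:**
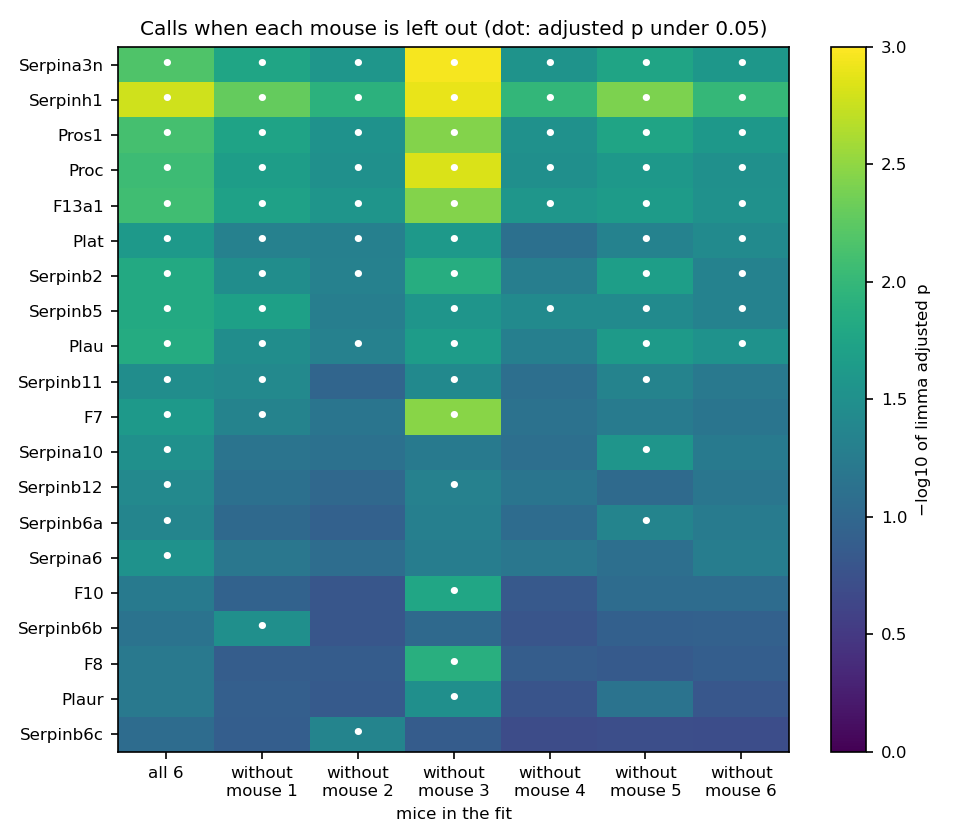
Minus log10 of the limma adjusted p (colour) for the members with a call in any of 7 fits: all 6 mice and each mouse left out (columns); a dot marks an adjusted p under 0.05. Serpina3n, Serpinh1, Pros1, Proc and F13a1 have a dot in every column, and F10, F8 and Plaur only without mouse 3.

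Lists of other genes of these systems showed few large ratios. Among 22 rows of other haemostasis genes, 6 passed, 4 negative and 2 positive, a share near the 24.4% of all rows, and the median was -0.07. Besides Ggcx and Vkorc1, the named genes were 1 of 2 rows of Entpd1, an enzyme that clears the platelet agonist ADP, at -0.62 (n = 4), and Mcfd2, which helps factors V and VIII leave the endoplasmic reticulum, at -0.34. The other Entpd1 row was at 0.01 and did not pass. Among 10 rows of receptors of clotting proteases and their clearance, 5 passed, 4 negative and 1 positive, beside 24.4% of all rows, and 3 passed without mouse 2, 4 or 6, beside 11.8%, 11.5% and 14.8%. F2rl3, the thrombin receptor PAR4, was at -0.50 ± 0.14 (adjusted p = 0.0035), with all 6 mice between -0.69 and -0.33. The integrin chain Itgav passed in 2 of 3 rows, at -0.42 and -0.44, and was at -0.16 in the third. The clearance receptor Sorl1 passed in 1 of 2 rows, at 0.45, and was at 0.03 in the other. The called F2rl3, Ggcx, Mcfd2 and Sorl1 rows lay 6, 18 or 24 rows from a stronger called row of their sign. So did the Itgav row at -0.42. A share of a neighbour's signal in these rows was not tested.

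Of 22 rows of proteases that serpins target or that act beside those, 6 passed, 5 negative and 1 positive, again a share near the 24.4% of all rows. Without mouse 2, 4, 5 and 6 these were 1, 2, 2 and 1 rows, beside 11.8%, 11.5%, 17.5% and 14.8% of all rows. The lysosomal proteases Ctss and Ctsh lay apart, at -0.73 ± 0.57 (n = 5) and 0.75 ± 0.23. The complement proteases Masp2 and C1ra were at -0.46 and -0.43. The Ctsh row lies 6 rows from that of Scgb1a1 at 1.38, and the Masp2 row 6 rows from that of Capza2 at -0.65. A share of these signals in Ctsh or Masp2 was not tested. The neutrophil proteases Prtn3 and Elane, at -0.30 and 0.07, and the tryptases Tpsb2 and Tpsab1, both at 0.09, did not pass. Of the 5 platelet and megakaryocyte markers measured, 1 passed, Gp9 at 0.37, and their median was 0.01. The Gp9 row lies 24 rows from that of Imp3 at 0.43, and a share of that signal in it was not tested. Markers of adipocytes (5 of 7 rows), heart muscle (8 of 11) and club cells (6 of 7) passed on the positive side, and their medians were lowest in mouse 3 in each list. Their part in the positive ratios of F13a1, Proc and the other members was not tested.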

How the data were processed

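Lung RNA of 6 OVA mice was hybridised on 6 2-colour arrays against 1 control pool. The authors deposited 1 log ratio per row and array, read here as log2 from the values. The sources used here do not give the log base, the direction, the dyes, the scanner or how signals were corrected and filtered. Of 17280 rows, the platform annotation named 14722 with 1 symbol, 1 with several and 2557 with none. Symbols were updated through RefSeq (GRCm38.p6) for 14445 rows, while 277 kept the older name. Arrays were centred on the median of rows measured on all arrays. A set of 170 rows repeating 10 sequences and 4 plant rows were left out.

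Rows with a value on at least 4 arrays were tested against 0 (limma 3.58.1 in R 4.3.3, intercept alone, eBayes, two-sided), with Benjamini-Hochberg adjustment over all 11629 rows at 0.05. The pool's own mice add no spread to this test, and gene-specific dye effects do not cancel, as no swapped array is known. Whether the mice came from separate experiments is not stated. The number of arrays limits the precision. The fit was tested on simulated data. Members and gene lists were chosen with earlier results of these data known. The rule for named genes gave values in every mouse for members past the threshold and at least 1.5-fold apart, and up to 4 rows past the threshold per list, or up to 2 where none passed. All other members, and the other genes given with values, were named after their values were seen. Of the other marker lists, 0 of 2 mesothelium rows passed, 3 of 8 of alveolar type 2 cells and 3 of 10 of neutrophils. Figures were drawn with matplotlib 3.10.9.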

Additional observations from a re-analysis of the deposited data

Results flagged for a closer look

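Among the 39 members, 2 rows had 1 mouse far from the others relative to the range of the row, and chance alone marks about 1 in 20 rows. In both it was mouse 3. Fgb was at -0.607 in mouse 3, against 0 to 0.192 in the 4 other mice with a value. Serpinc1 was at -0.453 in mouse 3, against 0.003 to 0.129 in the other 5.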

How the results depend on the processing

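No paired analysis was possible because the 6 arrays form 1 group. The 15 calls were kept without centring, with robust eBayes, with rows of one gene averaged and with values on at least 3 arrays. Scaled arrays gave 16, adding F5, and quantile normalization 16, adding F5 and Serpinb6b and losing Plat. With unmoderated variances, counts were 1444 of all rows, 9 members, 3 other haemostasis genes, 2 receptor rows and 1 target protease. The member calls lost there were F7, Plat, Serpina10, Serpinb11, Serpinb12 and Serpinb6a. In another fit, rows 6, 18 or 24 numbers from a stronger called row of the same sign were left out. This left 1717 calls over all rows and 9 among the 21 members kept, whose median was -0.179. It also left 3 haemostasis, 2 receptor and 3 protease calls. The member calls lost with those rows were F13a1, Proc, Serpina6, Serpinb5, Serpinb11 and Serpinb12, which left 7 negative and 2 positive calls. A choice made after seeing the data left out only rows near neighbours of the same sign at least 2-fold apart. It removed F13a1 and Proc alone and left 13 of 37. Array weights gave 21 member calls and 29.5% of all rows, adding F10, F5, F8, Plaur, Serpinb6b and Serpind1. Values on 6 of 6 arrays left 3 protease calls, and quantile normalization moved the members' median to -0.0955. At an adjusted p of 0.01, 746 rows and 5 members passed, and at 2-fold 1 member, Serpina3n. Leaving out 1 mouse gave 1332 to 3017 rows, 6 to 15 members, 3 to 4 of them 1.5-fold apart, 5 to 7 haemostasis, 3 to 5 receptor and 1 to 7 protease calls, and member medians of -0.0956 to 0.0047. No called member changed sign in these fits. Some of these fits held fewer rows or mice by construction, and the cause of a change in the calls was not tested in any of them.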
